A study of Homo sapiens with 15 samples.

Results

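The genes described here are 10 transcription factor genes of the early response to growth factors and stress: *FOS*, *FOSB*, *FOSL1*, *FOSL2*, *JUN*, *JUNB*, *JUND*, *EGR1*, *ATF3* and *KLF6*. They were chosen by symbol and each was found once among the 58735 gene identifiers of the count table. All 10 passed the filter on low counts, which kept 21019 genes. The samples were 15 xenografts grown from human cell lines (CDX tumors), whose RNA was sequenced, 5 each from the cholangiocarcinoma (CCA) lines HuCC-A1, EGI-1 and HuCC-T1. HuCC-A1 and HuCC-T1 are intrahepatic lines and EGI-1 is an extrahepatic line, and the study set out to characterize tumors that respond strongly or weakly to an antibody against claudin-1. None of the 15 tumors received that antibody. The hosts were immunodeficient NRG mice, given phosphate-buffered saline intraperitoneally once a week, lasting 6 weeks for HuCC-A1 and 4 weeks for EGI-1, while the labels state no length for HuCC-T1. Each model is 1 cell line, so line, site of origin and length of treatment cannot be told apart. The p-values below rest on the spread among the 5 tumors of each line.

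AP-1 is a dimer of bZIP proteins in which a JUN protein pairs with a FOS protein or with another JUN protein, while FOS proteins need a JUN partner to bind DNA. Transcription of *FOS*, *FOSB*, *JUNB* and *EGR1* starts within minutes of a stimulus, because serum response factor (SRF), ternary complex factors and CREB are already present on their promoters and are activated by ERK, JNK and p38 kinases. The transcripts decay quickly, and handling of tissue can also raise them. EGR1 and KLF6 are zinc finger factors that bind GC-rich DNA, and ATF3 is a bZIP factor induced by cell stress that can pair with JUN proteins.

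Promoter sequences of 4 members are shown as examples of the control elements searched for. They are up to 250 bases before the RefSeq start on GRCh38.p14, in the sense direction, and capitals mark the CArG box, the site of SRF, in *EGR1*, the CRE, the site of CREB and ATF proteins, in *JUND*, and the TATA box in *FOSB* and *JUNB*.
EGR1, chr5:138465229-138465478, plus strand: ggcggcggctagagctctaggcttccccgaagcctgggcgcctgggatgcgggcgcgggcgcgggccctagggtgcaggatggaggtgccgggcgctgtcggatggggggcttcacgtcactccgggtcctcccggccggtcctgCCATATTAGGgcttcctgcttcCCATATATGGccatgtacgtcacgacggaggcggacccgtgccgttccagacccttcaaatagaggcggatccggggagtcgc
JUND, chr19:18281623-18281872, minus strand: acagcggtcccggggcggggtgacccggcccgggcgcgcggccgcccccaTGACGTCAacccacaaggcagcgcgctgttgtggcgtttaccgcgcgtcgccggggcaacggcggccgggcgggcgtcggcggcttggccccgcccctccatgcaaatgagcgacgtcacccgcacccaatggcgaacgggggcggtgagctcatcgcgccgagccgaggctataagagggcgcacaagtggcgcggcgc
FOSB, chr19:45467746-45467994, plus strand: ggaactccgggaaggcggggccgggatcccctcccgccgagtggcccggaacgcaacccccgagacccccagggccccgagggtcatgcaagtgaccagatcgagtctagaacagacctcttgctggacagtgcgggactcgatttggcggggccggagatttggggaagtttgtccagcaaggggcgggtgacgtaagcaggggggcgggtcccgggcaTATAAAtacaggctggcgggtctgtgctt
JUNB, chr19:12791236-12791485, plus strand: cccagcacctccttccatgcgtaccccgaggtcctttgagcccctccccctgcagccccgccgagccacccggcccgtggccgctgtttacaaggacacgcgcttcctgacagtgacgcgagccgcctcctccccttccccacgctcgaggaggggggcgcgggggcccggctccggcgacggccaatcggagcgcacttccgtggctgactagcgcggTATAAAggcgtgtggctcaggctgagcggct
The *EGR1* promoter held 2 CArG boxes, one from 105 to 96 and one from 83 to 74 bases before the start. A CArG box was found in 1.16% of the 35116 promoters of the table and in 1 of 10 member promoters. The CRE of *JUND*, TGACGTCA, lay from 200 to 193 bases before the start, and 1.65% of all promoters and 1 of 10 member promoters held it. TATAAA was searched on the sense strand and stood in 4 of 10 member promoters against 6.80% of all. These 4 were *JUNB* (31 to 26 bases before the start), *FOSB* (30 to 25), *FOS* (33 to 28, in a stretch annotated as exon and not shown) and 1 of the 2 *ATF3* starts (230 to 225). The AP-1 site TGACTCA was in none of the 10 windows and in 4.20% of all, and the EGR site GCGTGGGCG was in none of the 10 and in 0.720% of all, with both strands searched for these letters, the CRE and the CArG box. *ATF3* has 2 starts in the table, and *FOSL1* has none there. Only these patterns in the 250 bases before each start were searched. Sites further away or with variant letters were not counted.

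Total counts per tumor ran from 20001412 to 44067878, and every HuCC-A1 library (at most 33585265 counts) was smaller than every EGI-1 library (at least 34239460). Mitochondrial genes took 4.50 to 11.3% of counts in HuCC-A1, 3.94 to 5.64% in EGI-1 and 5.97 to 8.36% in HuCC-T1 tumors. All 10 epithelial markers had counts in every model, with a summed level of 9640 to 13100 CPM in HuCC-A1, 16100 to 27200 in EGI-1 and 8180 to 19200 in HuCC-T1. The summed level of 10 fibroblast markers was 424 to 949 CPM in HuCC-A1, 74.5 to 127 in EGI-1 and 821 to 3720 in HuCC-T1, with every marker detected in each model. Different genes carried these sums, with *COL3A1* at a mean of 638 CPM in HuCC-A1, *COL1A1* at 84.5 in EGI-1, and *POSTN* at 1220 and *COL1A1* at 375 in HuCC-T1. Of the 8 fibroblast markers tested, 3 were higher and 4 lower in HuCC-A1 than in HuCC-T1, and the mean of *DCN* was 6.18 against 0.0999 CPM. The 8 endothelial markers summed to 20.2 to 39.9, 5.72 to 9.17 and 14 to 26 CPM in that order, and *KDR* was at 0 in HuCC-T1. The 8 leukocyte markers summed to 21 to 54.8, 28.9 to 40.7 and 15.2 to 46.5 CPM, with *AIF1* at 0 in HuCC-A1 and HuCC-T1 and *TYROBP* at 0 in EGI-1 and HuCC-T1. The 4 red blood cell markers summed to at most 1.58 CPM in any tumor. The grafted cells were human and the hosts were mice, so stroma, vessels and blood cells would be of mouse origin. Counts of those markers can come from the cancer lines or from mouse reads assigned to human genes, which cannot be told apart here. The part of other cell types in the differences below was not tested. In bulk tumors, fewer cells of a type and less RNA per cell cannot be told apart.

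The 3 models differed in which AP-1 and EGR genes were high. HuCC-A1 tumors had the most *FOSB*, *EGR1* and *ATF3* and the least *FOS* and *KLF6*, EGI-1 tumors had the most *JUNB* and *JUND*, and HuCC-T1 tumors had the least *JUNB*. Levels are counts scaled to a common library total with TMM factors (CPM), and differences are log2 fold changes. Calls required an adjusted p (Benjamini-Hochberg) under 0.05 from the quasi-likelihood test of edgeR. The standard error (SE) of a difference was derived from that test, as the absolute log2 fold change over the square root of the F statistic. In HuCC-A1 against EGI-1 tumors, 3 members were higher and 4 lower, where 29.4% of all tested genes were higher and 26% lower. In HuCC-T1 against EGI-1 tumors, 1 member was higher and 2 lower, against 27.3 and 25% of all genes. In HuCC-A1 against HuCC-T1 tumors, 4 members were higher and 2 lower, against 29.1 and 27.2% of all genes. Since so many genes of the table differed between the lines, these counts are no result about the 10 genes as a class. Of the 10 members, 7 were called in at least 1 comparison and 3 (*FOSL1*, *FOSL2* and *JUN*) in none. *JUNB* and *ATF3* were called in all 3 comparisons. The share of all tested genes called in at least 1 or in all 3 comparisons was not determined. These tallies are therefore no result about the class either. The comparisons share tumors, so their calls are not independent. The median log2 fold change of the members was -0.45 in HuCC-A1 against EGI-1, -0.28 in HuCC-T1 against EGI-1 and 0.24 in HuCC-A1 against HuCC-T1 tumors, beside 0.06, 0.06 and 0.05 over all tested genes.

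**Figure D1:**
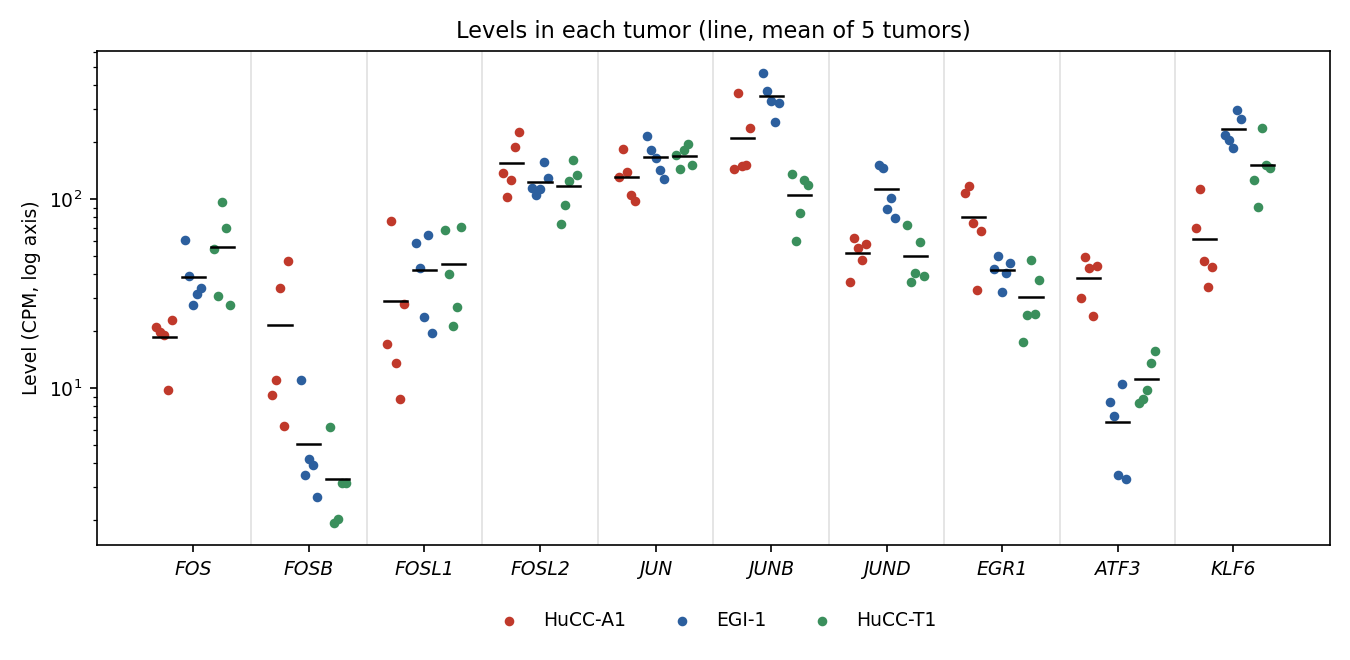
Level of each of the 10 genes in each of the 15 tumors, in CPM (log axis), as points drawn in order of replicate number and a black line at the mean of 5 tumors. *ATF3* in HuCC-A1 (23.9 to 49.4 CPM) lies above every tumor of the other models, and *FOSL1* overlaps in all 3 models.

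*FOS*, on chromosome 14 (75278774 to 75282230, plus strand), encodes the founding FOS protein. In replicates 1 to 5, HuCC-A1 tumors had 21.1, 19.7, 19.0, 9.79 and 23.0 CPM of *FOS*. EGI-1 tumors had 60.6, 39.0, 27.4, 31.3 and 33.8 CPM, and HuCC-T1 tumors had 54.6, 30.6, 96.7, 69.9 and 27.6 CPM. All 5 HuCC-A1 tumors were below every tumor of the other models. The mean was 18.5 ± 5.11 CPM (SD, n = 5) in HuCC-A1, 38.4 ± 13.1 in EGI-1 and 55.9 ± 28.7 in HuCC-T1. *FOS* was lower in HuCC-A1 than in EGI-1 (log2 fold change -1.05, SE 0.32, adjusted p = 0.00996) and than in HuCC-T1 (-1.59, SE 0.33, adjusted p = 0.000478). HuCC-T1 and EGI-1 overlapped, with a log2 fold change of 0.54 (SE 0.32, adjusted p = 0.165).

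*FOSB*, on chromosome 19 (45467995 to 45475179, plus strand), encodes a FOS protein that also has a truncated splice form, which gene counts do not separate. HuCC-A1 tumors had 9.21, 11.0, 33.6, 6.25 and 47.0 CPM. EGI-1 tumors had 11.0, 3.48, 4.19, 3.90 and 2.64 CPM, and HuCC-T1 tumors had 6.17, 1.94, 2.02, 3.14 and 3.15 CPM. The HuCC-A1 tumors spread over a 7.52-fold range, replicates 3 and 5 were far above the rest, and replicate 1 of EGI-1 lay within their range. *FOSB* was higher in HuCC-A1 tumors than in EGI-1 (log2 fold change 2.09, SE 0.54, adjusted p = 0.00309), at 21.4 ± 18.0 against 5.03 ± 3.36 CPM (SD, n = 5 each). The level in HuCC-T1 was 3.28 ± 1.72 CPM, below every HuCC-A1 tumor (log2 fold change of HuCC-A1 against HuCC-T1 2.70, SE 0.55, adjusted p = 0.000483). HuCC-T1 against EGI-1 was not called (-0.61, SE 0.53, adjusted p = 0.349). *FOS* was thus lowest and *FOSB* highest in HuCC-A1, while HuCC-T1 against EGI-1 was called for neither gene.

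*FOSL1*, on chromosome 11 (65892049 to 65900573, minus strand), encodes FRA1, a FOS protein linked to invasion in carcinomas. HuCC-A1 tumors had 17.1, 76.0, 13.6, 8.73 and 27.8 CPM, so replicate 2 was more than double the next. EGI-1 tumors had 58.4, 43.3, 23.7, 64.3 and 19.5 CPM, and HuCC-T1 tumors had 68.1, 40.2, 21.2, 26.8 and 70.7 CPM. The models overlapped and no comparison was called, with log2 fold changes of -0.55 (SE 0.51, adjusted p = 0.374) in HuCC-A1 against EGI-1, 0.12 (SE 0.51, adjusted p = 0.859) in HuCC-T1 against EGI-1 and -0.67 (SE 0.51, adjusted p = 0.275) in HuCC-A1 against HuCC-T1. For the comparisons with HuCC-A1, its replicate 2 decided this. Without it *FOSL1* was lower in HuCC-A1 than in EGI-1 (-1.32, adjusted p = 0.0167) and than in HuCC-T1 (-1.43, adjusted p = 0.0104). A pseudogene, *FOSL1P1*, took at most 14 counts in any tumor.

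*FOSL2*, on chromosome 2 (28392448 to 28417312, plus strand), encodes FRA2. It had 137, 102, 126.2, 188 and 225 CPM in HuCC-A1, 115, 104, 112, 158 and 129 in EGI-1, and 73.3, 92.8, 125, 162 and 134 in HuCC-T1. The 3 ranges overlapped. *FOSL2* was not called, with log2 fold changes of 0.33 (SE 0.23, adjusted p = 0.220) in HuCC-A1 against EGI-1, -0.07 (SE 0.23, adjusted p = 0.80) in HuCC-T1 against EGI-1 and 0.41 (SE 0.23, adjusted p = 0.132) in HuCC-A1 against HuCC-T1. With the replicate number as a block the last of these was called (0.40, adjusted p = 0.0421).

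*JUN*, on chromosome 1 (58780788 to 58784327, minus strand), encodes the JUN protein that JNK phosphorylates. It had 130.2, 184, 138, 105 and 97.0 CPM in HuCC-A1, 215, 180.4, 165, 142 and 127 in EGI-1, and 172, 145, 182, 195 and 150.4 in HuCC-T1. HuCC-A1 tumors reached lower than the others, yet the ranges overlapped. No comparison was called, with log2 fold changes of -0.34 (SE 0.18, adjusted p = 0.112) in HuCC-A1 against EGI-1, 0.02 (SE 0.18, adjusted p = 0.921) in HuCC-T1 against EGI-1 and -0.37 (SE 0.18, adjusted p = 0.0892) in HuCC-A1 against HuCC-T1. Replicate 2 of HuCC-A1 was the highest of its model here as well. Without it *JUN* was lower in HuCC-A1 than in EGI-1 (-0.50, adjusted p = 0.0188) and than in HuCC-T1 (-0.52, adjusted p = 0.0150).

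*JUNB*, on chromosome 19 (12791496 to 12793315, plus strand), encodes a JUN protein that is a weaker activator than JUN and can oppose it. HuCC-A1 tumors had 145, 363, 149, 152 and 237 CPM of *JUNB*, with replicate 2 the highest. EGI-1 tumors had 462, 372, 331, 256 and 321 CPM, and HuCC-T1 tumors had 136, 59.9, 84.4, 126.1 and 119 CPM. All HuCC-T1 tumors were below every tumor of the other models, and replicate 2 of HuCC-A1 lay within the EGI-1 range. *JUNB* was lower in HuCC-T1 than in EGI-1 (log2 fold change -1.73, SE 0.28, adjusted p = 5.26e-05), at 105 ± 31.8 against 348 ± 76.2 CPM (SD, n = 5 each). At 209 ± 94.5 CPM, HuCC-A1 was higher than HuCC-T1 (0.99, SE 0.27, adjusted p = 0.00472) and lower than EGI-1 (-0.74, SE 0.27, adjusted p = 0.0277). The last call was lost without replicate 1 of EGI-1 (-0.64, adjusted p = 0.0645) and without replicate 1 (-0.65, adjusted p = 0.0628), 3 (-0.67, adjusted p = 0.0562) or 4 (-0.68, adjusted p = 0.0554) of HuCC-A1. *JUNB* shares 14.2% of its exon bases with *HOOK2* on the opposite strand. *HOOK2* stood at 88.2 ± 16.4 CPM in HuCC-A1, 136 ± 21.6 in EGI-1 and 89.5 ± 27.7 in HuCC-T1, and its part in the *JUNB* counts was not tested, since the strand setting of the counting is not given in the sources used here.

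*JUND*, on chromosome 19 (18279760 to 18281622, minus strand), encodes a JUN protein that is usually expressed at a steady level. HuCC-A1 tumors had 36.4, 62.0, 55.1, 47.4 and 57.8 CPM of *JUND*, EGI-1 tumors had 151, 146, 88.1, 101 and 78.9, and HuCC-T1 tumors had 72.9, 36.5, 40.7, 58.8 and 38.9. Every EGI-1 tumor was above every tumor of the other models. The mean was 113 ± 33.2 CPM in EGI-1, 51.7 ± 10.1 in HuCC-A1 and 49.6 ± 15.8 in HuCC-T1 (SD, n = 5 each). *JUND* was lower in HuCC-A1 (log2 fold change -1.13, SE 0.23, adjusted p = 0.000426) and in HuCC-T1 (-1.19, SE 0.23, adjusted p = 0.000309) than in EGI-1. HuCC-A1 against HuCC-T1 gave 0.06 (SE 0.23, adjusted p = 0.832).

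*EGR1*, on chromosome 5 (138465490 to 138469315, plus strand), carries the CArG boxes shown above. HuCC-A1 tumors had 108, 117, 74.6, 33.0 and 68.0 CPM, EGI-1 tumors had 42.8, 49.9, 32.2, 40.4 and 45.9, and HuCC-T1 tumors had 17.5, 24.2, 47.8, 24.7 and 37.4. In HuCC-A1, 4 tumors were above every other tumor and replicate 4 was within the range of EGI-1. *EGR1* was higher in HuCC-A1 tumors than in EGI-1 (log2 fold change 0.92, SE 0.30, adjusted p = 0.0132), at 80.1 ± 33.8 against 42.2 ± 6.63 CPM, and than in HuCC-T1 (1.40, SE 0.30, adjusted p = 0.00069), at 30.3 ± 12.1 CPM (SD, n = 5 each). HuCC-T1 against EGI-1 was not called (-0.48, SE 0.29, adjusted p = 0.183).

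*ATF3*, on chromosome 1 (212565334 to 212620777, plus strand), showed the largest fold change between HuCC-A1 and EGI-1 among the 10 genes. HuCC-A1 tumors had 29.9, 49.4, 43.2, 23.9 and 44.4 CPM, EGI-1 tumors had 8.45, 7.14, 3.48, 10.5 and 3.30, and HuCC-T1 tumors had 8.28, 8.75, 9.69, 13.6 and 15.7. The lowest HuCC-A1 tumor was above the highest tumor of both other models. *ATF3* was higher in HuCC-A1 tumors than in EGI-1 (log2 fold change 2.54, SE 0.32, adjusted p = 3.73e-06) and than in HuCC-T1 (1.77, SE 0.31, adjusted p = 0.000126). The means were 38.2 ± 10.7 CPM in HuCC-A1, 6.56 ± 3.13 in EGI-1 and 11.2 ± 3.26 in HuCC-T1 (SD, n = 5 each). It was also higher in HuCC-T1 than in EGI-1 (0.77, SE 0.31, adjusted p = 0.0445), although those models overlapped. The adjusted p missed the threshold without replicate 2 (adjusted p = 0.0617), 3 (0.113) or 5 (0.107) of EGI-1, without replicate 5 of HuCC-A1 (0.0519) and without replicate 3 (0.0506), 4 (0.0914) or 5 (0.112) of HuCC-T1. It did so too with only the 10 tumors compared (0.0584) and with the replicate number as a block (0.0705). The log2 fold change in these fits was 0.60 to 0.82.

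*KLF6*, on chromosome 10 (3775996 to 3785281, minus strand), encodes a factor that acts as a tumor suppressor in some settings. HuCC-A1 tumors had 69.7, 113, 47.0, 34.0 and 43.7 CPM, EGI-1 tumors had 217, 205, 187, 296 and 263, and HuCC-T1 tumors had 126.1, 90.8, 239, 152 and 145. Every HuCC-A1 tumor was below every EGI-1 tumor, while replicate 2 of HuCC-A1 was above replicate 2 of HuCC-T1. *KLF6* was lower in HuCC-A1 than in EGI-1 (log2 fold change -1.93, SE 0.30, adjusted p = 3.23e-05) and than in HuCC-T1 (-1.29, SE 0.29, adjusted p = 0.00118). The means were 61.5 ± 31.6 CPM in HuCC-A1, 234 ± 45.0 in EGI-1 and 150.4 ± 54.7 in HuCC-T1 (SD, n = 5 each). HuCC-T1 against EGI-1 was not called (-0.64, SE 0.29, adjusted p = 0.0743). It was called without replicate 3 of HuCC-T1 (-0.87, adjusted p = 0.0192), without replicate 2 of HuCC-A1 (-0.64, adjusted p = 0.0300) and with only the 10 tumors compared (-0.62, adjusted p = 0.0335).

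**Figure D2:**
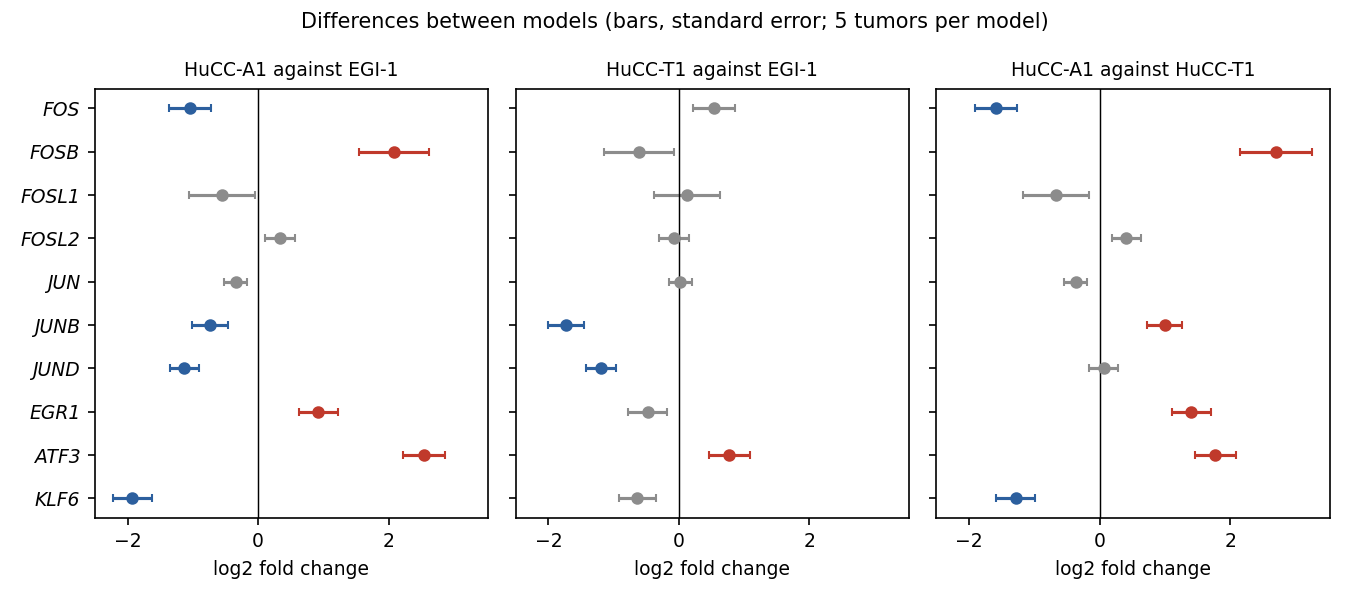
Log2 fold change of each gene in the 3 comparisons, with the standard error as bars and 5 tumors per model. Red points were called higher, blue points lower, and grey points were not called. *FOSB*, *EGR1* and *ATF3* are red and *FOS* and *KLF6* blue in HuCC-A1 against both other models.

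The makeup of the FOS and JUN families was compared within tumors, as the share of each gene in the summed counts per kilobase of exon of its family. In the FOS family, *FOSL2* took the largest mean share in HuCC-A1 (49.8 ± 18.5%, SD, n = 5) and *FOSL1* in EGI-1 (40.5 ± 10.3%) and HuCC-T1 (41.0 ± 18.2%). Single tumors departed from this. *FOSL1* led in replicate 2 of HuCC-A1 (64.3%) and *FOS* in replicate 3 of HuCC-T1 (50.7%). *FOSL2* led in replicates 3 (41.9%) and 5 (45.8%) of EGI-1 and replicate 4 of HuCC-T1 (38.3%). In CPM, not divided by length, *FOSL2* had the highest mean of the family in every model. The *FOSB* share ran from 3.18 to 16.5% in HuCC-A1, from 1.06 to 2.91% in EGI-1 and from 0.617 to 1.73% in HuCC-T1. Every HuCC-A1 tumor was thus above every other tumor, and both differences passed the two-sided exact permutation test (p = 0.00794, adjusted p = 0.0278 over 21 tests). In the JUN family, *JUNB* took the largest mean share in every model, with 62.5 ± 6.87% in HuCC-A1, 64.1 ± 3.77% in EGI-1 and 43.0 ± 6.10% in HuCC-T1. *JUN* took 21.4 ± 5.27%, 15.7 ± 1.24% and 37.0 ± 6.13% in the same order. The *JUN* share was above the *JUNB* share in replicate 2 (43.8 against 35.2%) and replicate 3 (43% against 38.8%) of HuCC-T1. HuCC-T1 tumors had a larger *JUN* share and a smaller *JUNB* share than both other models, with no overlap (exact permutation test, adjusted p = 0.0278 each). The shares of a family have a fixed sum, so the *JUN* and *JUNB* differences are not independent. The level of *JUN* itself was not called. Its log2 fold change was 0.02 in HuCC-T1 against EGI-1 and -0.37 in HuCC-A1 against HuCC-T1 (edgeR, adjusted p = 0.921 and 0.0892). The level of *JUNB* was lower in HuCC-T1 than in both other models. *JUND* took 16.1 ± 3.18% in HuCC-A1, 20.2 ± 3.21% in EGI-1 and 20 ± 2.97% in HuCC-T1, and its 3 differences did not pass (exact permutation test, smallest adjusted p = 0.167).

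In all, 6 of 21 share differences passed, and an exact p of 0.00794 is the smallest that 5 against 5 tumors allow. Leaving out 1 tumor left 0 to 9 of them. It was 0 without replicate 1, 3 or 4 of HuCC-A1, replicate 1, 2, 3 or 5 of EGI-1, or replicate 2, 3 or 4 of HuCC-T1, where each of the 6 had an adjusted p of 0.0556 in the exact permutation test and 4 against 5 tumors allow no p under 0.0159. In those cases the differences were 19.6 to 21.7 percentage points for the *JUN* share and -21.8 to -19.1 for the *JUNB* share of HuCC-T1 against EGI-1, and 4.47 to 7.79 for the *FOSB* share of HuCC-A1 against EGI-1. Without replicate 2 of HuCC-A1, 9 passed. Without that tumor the *FOSL1* share was lower in HuCC-A1 than in EGI-1 by a difference of -20.1 percentage points, and the *FOSL2* share was higher by 21.9 (exact permutation test, adjusted p = 0.0370 each). The *FOSL2* share was then also higher in HuCC-A1 than in HuCC-T1, by 28.2 points (adjusted p = 0.0370, exact permutation test). The summed level of the FOS family was 46.5 ± 14.4 CPM per kilobase in HuCC-A1, 52.2 ± 14.4 in EGI-1 and 58.3 ± 8.49 in HuCC-T1. The summed level of the JUN family was 180 ± 62.5 CPM per kilobase, 299 ± 65.5 and 132 ± 28.1 in the same order, so the mean of the JUN family was above that of the FOS family in each model.

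**Figure D3:**
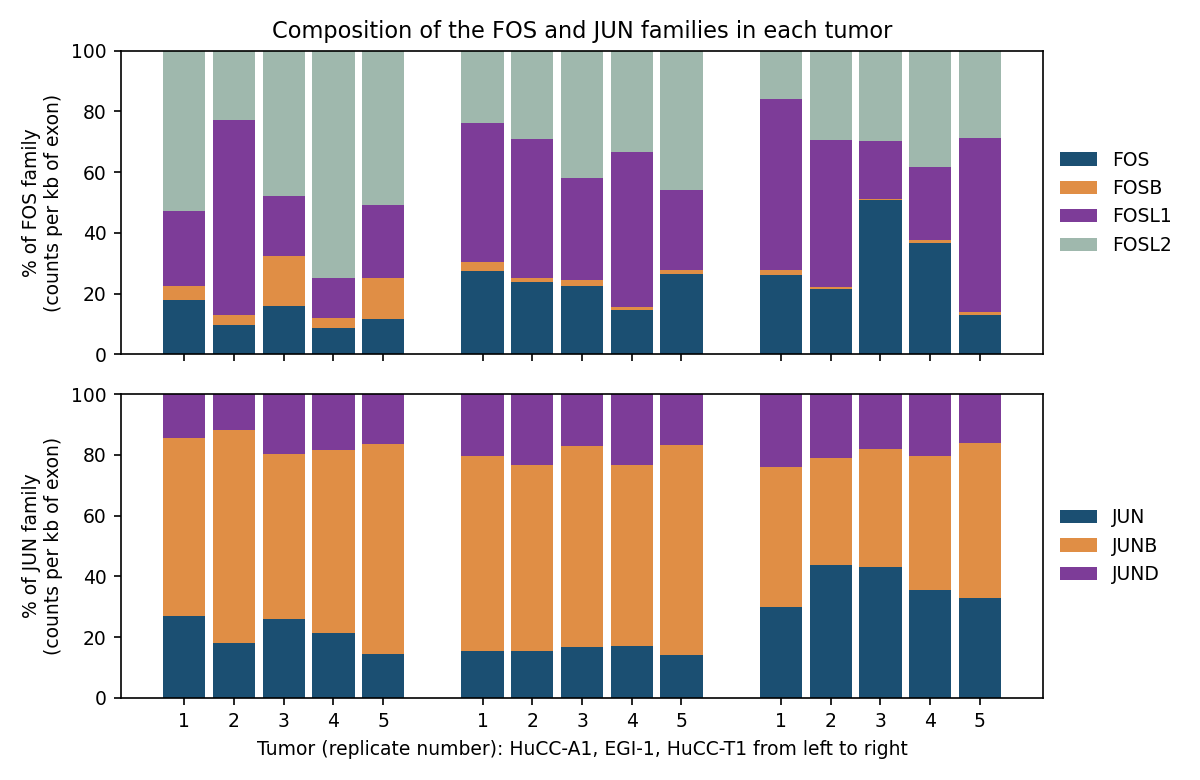
Share of each gene in the summed counts per kilobase of exon of the FOS family (top) and JUN family (bottom), with 1 bar per tumor and each bar adding to 100%. *FOSB* takes 3.18 to 16.5% in HuCC-A1 tumors and at most 2.91% elsewhere, and *JUN* takes 29.9 to 43.8% in HuCC-T1 tumors.

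The members also varied between tumors of the same line. The pooled SD of log2 CPM within a model was 0.93 for both *FOSB* and *FOSL1*, at the 98.1th percentile of 13338 expressed genes, whose median was 0.32. It was 0.59 for *FOS*, 0.55 for *ATF3* and *EGR1*, 0.51 for *KLF6*, 0.48 for *JUNB* and 0.39 for *FOSL2* and *JUND*. *JUN* was the steadiest, with 0.29, at the 42.5th percentile, and the other 9 members were above the median gene. Single tumors were at the top or bottom of several members at once. Replicate 2 of HuCC-A1, the smallest library, was the highest of its model in 7 members (*FOSL1*, *JUN*, *JUNB*, *JUND*, *EGR1*, *ATF3* and *KLF6*). Replicate 4 of HuCC-A1 was the lowest of its model in 6 (*FOS*, *FOSB*, *FOSL1*, *EGR1*, *ATF3* and *KLF6*). In EGI-1, replicate 1 was the highest in 5 members (*FOS*, *FOSB*, *JUN*, *JUNB* and *JUND*) and replicate 5 the lowest in 5 (*FOSB*, *FOSL1*, *JUN*, *JUND* and *ATF3*). In HuCC-T1, replicate 2 was the lowest in 5 (*FOSB*, *JUN*, *JUNB*, *JUND* and *KLF6*). How often each of these tumors was the highest or lowest of its model over all genes was not determined. A tumor at the extreme of many genes would give such counts too, so they are no result about the members as a class.

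**Figure D4:**
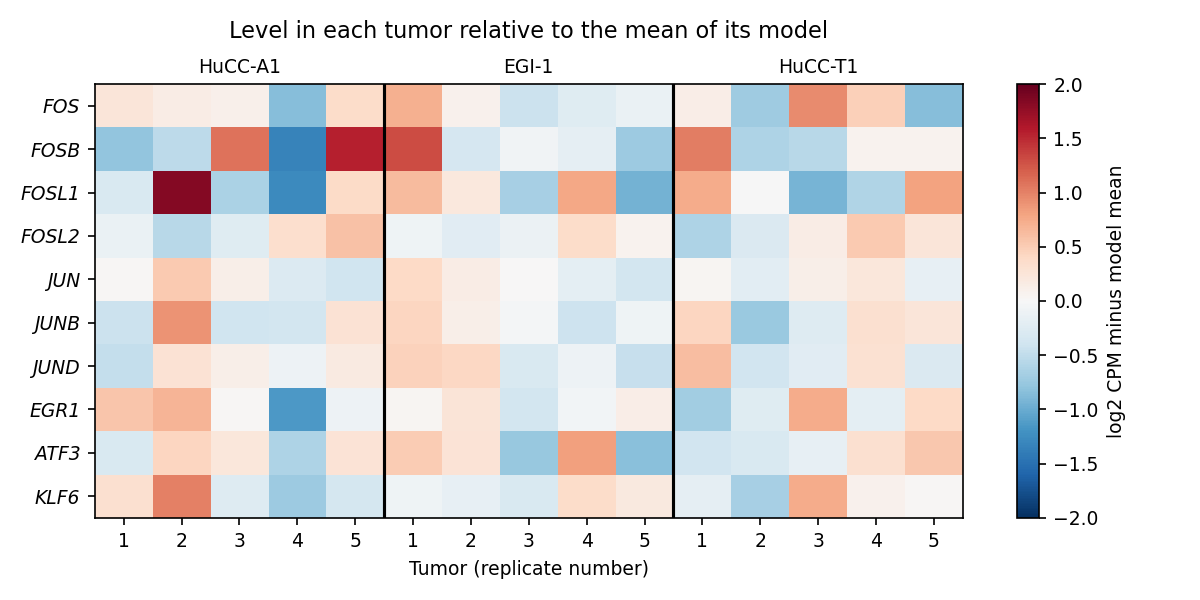
Log2 CPM of each gene in each tumor minus the mean of its model, with 1 column per tumor and red above and blue below that mean. Replicate 2 of HuCC-A1 is above its model in 8 of 10 genes, with *FOSL1* the furthest, and replicate 4 is furthest below in *FOSB*, *FOSL1* and *EGR1*.

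Over the 15 tumors, after subtraction of each model mean, 8 of 45 pairs of members had a Pearson r above 0.5 and 12 had one below 0. These values are descriptions over tumors of which each set of 5 shares a line. The share of all gene pairs with such an r was not determined, so the counts of pairs are no result about the class. The pairs with the highest r were *EGR1* and *KLF6* (0.78), *JUNB* and *JUND* (0.67), *FOSL1* and *ATF3* (0.65), *FOSL1* and *JUNB* (0.61), and *FOSB* and *JUND* (0.60). *FOS* and *FOSB*, which share the rapid induction, had an r of 0.40. *FOSL2* went against *JUN* with an r of -0.50.

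Among 10079 other protein-coding genes, those most like each member in the same measure were as follows. For *FOS* they were *DUSP1*, a phosphatase that switches off MAP kinases (r = 0.86), *TCN2* (0.81) and *EAPP* (0.76). For *FOSB* they were *CENATAC* (0.88), *PMF1* (0.87) and *RBM3* (0.86), and for *FOSL1* *PLEK2* (0.94), *SERPINB1* (0.93) and *BIK* (0.92). *DUSP1* is itself an immediate early gene, so it stands apart from the others named here in belonging to a list used below. For *FOSL2* they were *POM121C* (0.92), *H6PD* (0.89) and *PHF13* (0.87), and for *JUN* *PIGT* (0.86), *EDEM2* (0.86) and *BIN1* (0.85). *JUNB* was most like *SYNGR2* (0.93), *MBOAT7* (0.92) and *POLR2J* (0.90), and *JUND* had an r of 0.91 with both *TUSC2* and *STAP2*. *EGR1* was most like *ISCA1* (0.88), *NSL1* (0.84) and *SCCPDH* (0.82). *ATF3* was most like *B4GALT3* (0.84), *DVL1* (0.82) and *DUSP14* (0.82), and *KLF6* most like *ETNK2* (0.87), *TBC1D22B* (0.84) and *LIF* (0.83), the last a cytokine of the IL-6 family.

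Genes around the members were counted in lists, with the shares of all genes given above as the background. Of 11 AP-1 partners and related bZIP factors, 1 was higher and 6 lower in HuCC-A1 than in EGI-1, 2 were higher and 4 lower in HuCC-T1 than in EGI-1, and 4 were higher and 5 lower in HuCC-A1 than in HuCC-T1. The median log2 fold changes were -0.43, -0.69 and -0.24. With at least 10 counts required in each library, 1 was higher in HuCC-T1 than in EGI-1 and 3 were lower in HuCC-A1 than in HuCC-T1. *MAFK*, a small MAF protein, was higher in HuCC-A1 tumors than in EGI-1 (1.56, SE 0.23, adjusted p = 1.91e-05), and *BATF*, a JUN partner, was lower (-3.28, SE 0.47, adjusted p = 1.42e-05). *MAF* was 29.8 ± 12.4 CPM in HuCC-T1, 4.62 ± 1.35 in EGI-1 and 0.911 ± 0.513 in HuCC-A1. It was higher in HuCC-T1 than in EGI-1 (2.69, SE 0.35, adjusted p = 6.87e-06) and lower in HuCC-A1 than in HuCC-T1 (-4.99, SE 0.40, adjusted p = 1.73e-08). *MAFF* was lower in HuCC-T1 than in EGI-1 (-1.17, SE 0.25, adjusted p = 0.000856), and *BATF2* was higher in HuCC-A1 than in HuCC-T1 (1.70, SE 0.33, adjusted p = 0.000292).

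Of 33 other immediate early genes, 10 were higher and 11 lower in HuCC-A1 than in EGI-1, 6 higher and 13 lower in HuCC-T1 than in EGI-1, and 14 higher and 8 lower in HuCC-A1 than in HuCC-T1, with medians of -0.12, -0.07 and 0.41. *SIK1*, a CREB-responsive kinase, was 25.5 ± 14 CPM in HuCC-A1 against 1.92 ± 0.443 in EGI-1 (log2 fold change 3.73, SE 0.35, adjusted p = 1.06e-07). *NR4A1*, an orphan nuclear receptor, was higher in HuCC-A1 than in HuCC-T1 (2.98, SE 0.44, adjusted p = 1.87e-05). *RHOB*, a small GTPase, was lower in HuCC-A1 than in EGI-1 (-1.89, SE 0.21, adjusted p = 6.17e-07), and *SGK1*, a kinase, was lower in HuCC-T1 than in EGI-1 (-1.95, SE 0.24, adjusted p = 3.92e-06). *CCN2*, a matrix protein gene also known as a target of YAP, was 45.7 ± 24.9 CPM in HuCC-T1 against 1.57 ± 0.451 in EGI-1 (4.87, SE 0.42, adjusted p = 5.49e-08). It was lower in HuCC-A1 than in HuCC-T1 (-3.88, SE 0.40, adjusted p = 3.16e-07).

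Of 26 kinases and factors upstream, 7 were higher and 13 lower in HuCC-A1 than in EGI-1, 12 higher and 10 lower in HuCC-T1 than in EGI-1, and 2 higher and 9 lower in HuCC-A1 than in HuCC-T1 (medians -0.33, 0.26 and -0.18). *MAPK3*, which encodes ERK1, was 193 ± 27.3 CPM in EGI-1, 55.4 ± 8.90 in HuCC-A1 and 57.8 ± 22.3 in HuCC-T1. It was lower in HuCC-A1 (-1.80, SE 0.22, adjusted p = 1.97e-06) and in HuCC-T1 (-1.74, SE 0.22, adjusted p = 3.72e-06) than in EGI-1. *MAPK10*, which encodes JNK3, was higher in both, by 2.98 (SE 0.34, adjusted p = 1.26e-06) and 2.33 (SE 0.34, adjusted p = 1.95e-05). Between HuCC-A1 and HuCC-T1, *RPS6KA5*, which encodes the kinase MSK1, was higher in HuCC-A1 (1.46, SE 0.29, adjusted p = 0.000332) and *RPS6KA3*, which encodes RSK2, lower (-1.61, SE 0.17, adjusted p = 3.45e-07).

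Of 21 AP-1 target genes, 20 were tested. In HuCC-A1, 6 were higher and 10 lower than in EGI-1, and 2 higher and 14 lower than in HuCC-T1, while in HuCC-T1 10 were higher and 3 lower than in EGI-1 (medians -0.53, -1.39 and 0.86). The collagenase gene *MMP1* was lower in HuCC-A1 than in HuCC-T1 (log2 fold change -9.43, SE 0.68, adjusted p = 4.57e-09), at 1.22 ± 1.04 against 870.3 ± 529 CPM. *MMP10* was lower in HuCC-A1 than in EGI-1 (-7.86, SE 0.64, adjusted p = 2.08e-08), and *MMP13* was higher in HuCC-T1 than in EGI-1 (3.51, SE 0.59, adjusted p = 8.51e-05). *HBEGF*, a growth factor of the EGF family, was higher in HuCC-A1 tumors than in EGI-1 (3.88, SE 0.57, adjusted p = 1.82e-05) and ran from 140.2 to 958 CPM among HuCC-A1 tumors. *IVL*, a cornified envelope gene, was lower in HuCC-T1 than in EGI-1 (-8.07, SE 0.85, adjusted p = 6.25e-07) and higher in HuCC-A1 than in HuCC-T1 (4.91, SE 0.78, adjusted p = 4.34e-05). With at least 10 counts required in each library, the list gave 3 higher and 6 lower in HuCC-A1 against EGI-1 and 8 lower in HuCC-A1 against HuCC-T1, with 1 higher there and 5 higher in HuCC-T1 against EGI-1. Without replicate 1 or 5 of HuCC-T1, 4 in place of 2 were higher in HuCC-A1 than in HuCC-T1.

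Of 7 EGR corepressors and targets, 3 were higher and 2 lower in HuCC-A1 than in EGI-1, 4 higher and 2 lower in HuCC-T1 than in EGI-1, and 2 higher and 2 lower in HuCC-A1 than in HuCC-T1 (medians 0.07, 0.45 and -0.07). The platelet-derived growth factor genes went opposite ways. *PDGFA* was higher in HuCC-A1 tumors than in EGI-1 (2.58, SE 0.20, adjusted p = 1.36e-08) and than in HuCC-T1 (1.69, SE 0.20, adjusted p = 1.58e-06), and *PDGFB* was lower (-2.53, SE 0.27, adjusted p = 3.93e-07, and -2.87, SE 0.27, adjusted p = 1.06e-07). *NAB2*, a corepressor that EGR1 induces, was lower in HuCC-T1 than in EGI-1 (-1.17, SE 0.26, adjusted p = 0.00106), and *TGFB1* was higher (1.15, SE 0.20, adjusted p = 0.000116).

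Heat shock genes were counted as a gauge of stress. Of 10, 3 were higher and 0 lower in HuCC-A1 than in EGI-1, 1 higher and 2 lower in HuCC-T1 than in EGI-1, and 5 higher and 0 lower in HuCC-A1 than in HuCC-T1, with medians of 0.27, -0.03 and 0.41. For the counts of 0, edgeR gave 1 lower gene in HuCC-A1 against EGI-1 and 0 in HuCC-A1 against HuCC-T1 at an unadjusted p under 0.05, and DESeq2 called 0 in both. Without replicate 5 of EGI-1, replicate 1 of HuCC-A1 or replicate 1 of HuCC-T1, 1 was called lower in HuCC-A1 than in EGI-1. The 1 higher in HuCC-T1 than in EGI-1 became 0 without replicate 3, 4 or 5 of EGI-1, without replicate 1, 4 or 5 of HuCC-T1 and with the replicate block, and 2 without replicate 2 of HuCC-T1 and with only the 10 tumors compared. *HSPB1*, a small heat shock protein gene, was higher in HuCC-A1 tumors than in EGI-1 (2.82, SE 0.33, adjusted p = 1.62e-06) and than in HuCC-T1 (2.23, SE 0.32, adjusted p = 1.67e-05). *HSPA1A* and *HSPA1B* are near-identical copies, and their counts are uncertain. In HuCC-T1 against EGI-1, they gave log2 fold changes of 0.91 (SE 0.35, adjusted p = 0.0355) and -1.60 (SE 0.26, adjusted p = 7.58e-05). The part of stress or tissue handling in the levels of the 10 members was not tested.

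**Figure D5:**
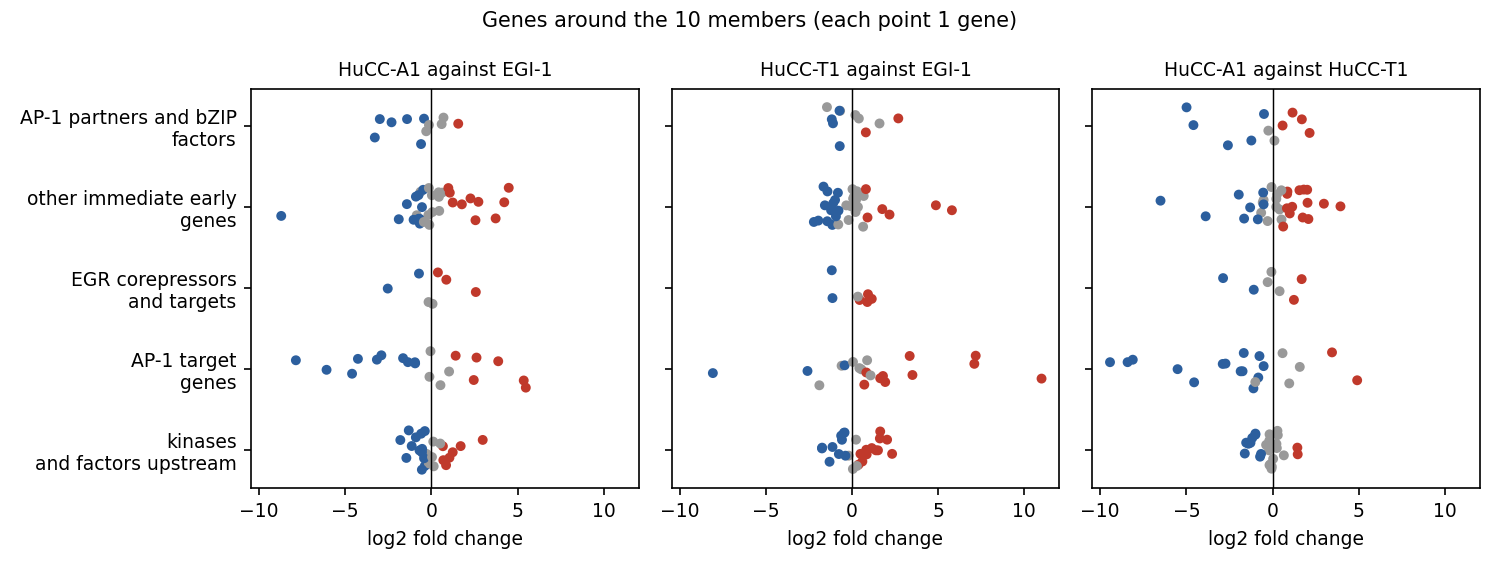
Log2 fold change of genes of 5 lists in the 3 comparisons, with 1 point per gene (red higher, blue lower, grey not called) and vertical scatter only for clarity. The AP-1 target genes lie mostly below 0 in HuCC-A1 against HuCC-T1, where 14 of 20 were lower.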

How the data were processed

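RNA of 15 CDX tumors, 5 per model by the sample labels, was analyzed. The deposited values are raw gene counts, which the authors made with CASAVA, HISAT2 2.0.5 and featureCounts 1.5.0-p3 on GRCh38, per the submitters' processing notes. Not given in the sources used here are the annotation, the strand setting and whether reads of the host were taken out. Identifiers were matched to GENCODE 29, which also gave exon lengths and positions, and promoters came from RefSeq (GRCh38.p14), with 10 promoters for 9 of the 10 members. Printed promoters were limited to bases outside annotated exons.

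The test was that of edgeR 4.0.16, run under R 4.3.3 (TMM, filterByExpr, quasi-likelihood F test, 1 fit of 15 tumors, 12 residual degrees of freedom), with Benjamini-Hochberg adjustment over 21019 genes at 0.05. The common biological coefficient of variation was 0.338. Family shares were tested with two-sided exact permutation tests. Correlations used log2 CPM with a prior count of 2. The pipeline was tested on simulated data. Total counts of 20001412 to 44067878 per tumor set the counting precision.

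All members were named. Of each list and comparison, the called gene with the highest and that with the lowest fold change were named if mean log2 CPM was at least 1. For likeness, the 3 protein-coding genes with the highest r and a mean log2 CPM of at least 3 were named. For *JUND*, 1 of these is not reported here. Members and lists were chosen with earlier results of these data known. Alternatives were RLE factors, only the tumors compared, no filter, at least 10 counts per library, a replicate block, DESeq2 1.42.0, other length measures for shares and leaving out each tumor. Figures were drawn with matplotlib 3.10.9.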

Additional observations from a re-analysis of the deposited data

Results flagged for a closer look

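Among 51 groups of 5 tumors examined with the test of Dixon, 4 held a tumor that stood apart, where chance gives about 1 in 20. *FOSB* was highest in replicate 1 of EGI-1, with 11.0 CPM against 2.64 to 4.19 CPM in the other tumors of the model, and in replicate 1 of HuCC-T1, with 6.17 CPM against 1.94 to 3.15 CPM. *FOSL1* was highest in replicate 2 of HuCC-A1, with 76.0 CPM against 8.73 to 27.8 CPM, and its share of the FOS family was then 64.3%. These are 2 views of the same tumor and gene. That tumor was also the highest of its model in 6 other members, a count that was not set beside all genes.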

How the results depend on the processing

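RLE factors, no filter, at least 10 counts in each library and DESeq2 left the number of members called within 1.5 times in every comparison. The number of members higher in HuCC-T1 than in EGI-1, 1 as reported, was 0 with only the 10 tumors compared, 0 with a replicate block and 0 to 1 with 1 tumor left out. The number lower in HuCC-A1 than in HuCC-T1, 2 as reported, was 2 to 4 with 1 tumor left out, and that in HuCC-A1 against EGI-1, 4 as reported, was 3 to 6. The deviations of same-numbered tumors had an r from -0.258 to 0.545, so they did not go together throughout. The highest value, 0.545, was that of replicate 1 in HuCC-T1 against EGI-1. Whether same-numbered tumors share a batch was not tested. The family shares gave 0 calls with a replicate block, since 5 sign flips allow no p under 0.0625, and 0 to 9 with 1 tumor left out, where 4 against 5 tumors allow no p under 0.0159. They gave 8 with counts not divided by length.

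Values near 0 changed sign. With 1 tumor left out, the log2 fold change of HuCC-T1 against EGI-1 ran from -0.10 to 0.32 for *FOSL1*, from -0.22 to 0.0898 for *FOSL2* and from -0.0601 to 0.13 for *JUN*. That of *JUND* in HuCC-A1 against HuCC-T1 ran from -0.0503 to 0.18 and was -0.0153 with no filter. The share difference in percentage points ran from -3.59 to 5.99 for *FOSL1* and from -1.23 to 0.741 for *JUND* in HuCC-T1 against EGI-1, and from -3.55 to 0.395 for *JUNB* in HuCC-A1 against EGI-1. The cause of these changes was not tested.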
